A study of Homo sapiens with 12 samples.

Results

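The genes described here are 39 human genes of the protein-folding machinery of the endoplasmic reticulum (ER) and of the unfolded protein response. They were taken by symbol from a fixed set of names, chosen with earlier results of these data known. All 39 were found in the deposited tables, which hold 30703 symbols for KYSE150 and 30106 for KYSE410 (26115 in both). By role they comprise 4 sensors and transcription factors, 13 chaperones and helper proteins, 8 oxidoreductases, 11 genes of ER-associated degradation (ERAD) and 3 subunits of the translocon. KYSE150 and KYSE410 are human tumour lines derived from squamous carcinoma of the esophagus. The 4 groups are KYSE150 in normoxia, KYSE150 in hypoxia, KYSE410 in normoxia and KYSE410 in hypoxia, with 21% oxygen as normoxia, 0.5% as hypoxia and 3 mRNA-seq libraries in each. The labels name no altered gene and no added agent in any group. Hypoxia is labelled 48 h and normoxia 0 h, whereas the design text gives both the same incubation, so the age of the normoxic cultures at harvest is not settled. The labels do not tell whether the libraries of a group are separate cultures. The p-values therefore weigh only the spread between these libraries, which may be technical.

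The ER folds secreted and membrane proteins: the translocon threads nascent chains into the lumen, chaperones hold and refold them, and oxidoreductases form and reshuffle their disulfide bonds. Chains that stay misfolded are drawn back into the cytosol and degraded, which is ERAD. When misfolded chains accumulate, the membrane sensors PERK (EIF2AK3), ATF6 and IRE1 (ERN1) start the unfolded protein response, in which IRE1 splices the XBP1 message and ATF6 and XBP1 drive chaperone and ERAD genes while PERK slows translation. Oxygen matters to this compartment because disulfide formation by ERO1 passes electrons to it, and ERO1A is a known target of hypoxia-inducible factors.

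The ER stress response element, a DNA element of the unfolded protein response, was found in either of 2 forms in the promoter windows of 10 of 36 members, and the matches are shown because CRELD2, HSPA5, CALR and XBP1, which are described in full here, hold them. MANF, TXNDC5, P4HB and ERO1A held neither form in this window. RefSeq windows on GRCh38.p14, from 250 bases before to 50 after the RefSeq start, were matched for 36 members (not for PDIA3, DERL1 and DERL3). Both strands were searched. The gene positions given below are from GENCODE, where some genes start further upstream. The sites printed for HSP90B1, CANX, CRELD2 and ERO1A lie inside those GENCODE intervals. Of the 250 bases before the start, 165 for XBP1, 147 for ERO1A and 128 for HSP90B1 were annotated as exon on either strand. Of the other genes with a printed site, HERPUD1 had 94 such bases, CRELD2 75, SDF2L1 41, ERO1B 27, CANX 23 and CALR 2. HSPA5 and HYOU1 had 0. The ER stress response element was searched as CCAAT and, after any 9 bases of spacer, CCACG. Its second form was searched as ATTGG and, after any 1 base, the same CCACG. The first was found in 7 members, 19.4% of 36, against 0.0776% of all 34796 promoters, and the second in 3 members, 8.33% against 0.0546%. The element belongs to the response by which these genes were chosen, so an excess over all promoters was set in advance and is no test. In these and the shares below, members count by 1 window per gene and all promoters by windows of different sequence, so the units are not the same. Each site is written 5′ to 3′ on the strand that matches, with the fixed bases in capitals.
XBP1, chr22:28800603-28800621: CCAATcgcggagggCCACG
HSPA5, chr9:125241391-125241409: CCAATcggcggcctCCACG
HSP90B1, chr12:103930216-103930234: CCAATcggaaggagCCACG
HSP90B1, chr12:103930321-103930339: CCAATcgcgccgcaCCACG
CALR, chr19:12938384-12938402: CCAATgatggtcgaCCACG
CANX, chr5:179698778-179698796: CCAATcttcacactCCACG
CRELD2, chr22:49918554-49918572: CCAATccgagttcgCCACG
ERO1B, chr1:236282183-236282201: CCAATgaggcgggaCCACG
SDF2L1, chr22:21642114-21642124: ATTGGtCCACG
HYOU1, chr11:119057274-119057284: ATTGGaCCACG
HYOU1, chr11:119057380-119057390: ATTGGaCCACG
HERPUD1, chr16:56932025-56932035: ATTGGgCCACG
The 250 bases before the HSPA5 start (chr9:125241344-125241593, minus strand) show where its exact match lies, with its first base 66 bases before the start.
HSPA5: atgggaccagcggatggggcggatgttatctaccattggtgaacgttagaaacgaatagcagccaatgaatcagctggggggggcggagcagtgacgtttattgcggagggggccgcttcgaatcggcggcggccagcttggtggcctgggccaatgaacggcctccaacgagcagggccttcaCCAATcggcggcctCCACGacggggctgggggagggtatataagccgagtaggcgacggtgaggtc
HYOU1 (chr11:119057206-119057455, minus strand) holds 2 copies of the second element, which appear here as their reverse complement.
HYOU1: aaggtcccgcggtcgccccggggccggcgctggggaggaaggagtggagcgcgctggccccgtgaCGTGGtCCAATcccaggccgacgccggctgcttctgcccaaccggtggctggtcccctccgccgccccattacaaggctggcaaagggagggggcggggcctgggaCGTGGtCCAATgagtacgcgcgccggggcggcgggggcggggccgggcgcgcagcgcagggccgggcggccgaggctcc
The core of the hypoxia response element was searched in both of its forms. The form ACGTG was in 16 of 36 members (44.4%, against 21.4% of all promoters). The form GCGTG was in 23 members (63.9% against 36.4%). Both forms hold the bases CG, and the windows compared were not matched for base composition. ERO1A held both forms, as did XBP1, HSP90B1, PDIA5, SYVN1, OS9, SELENOS and SEC61G. An ERO1A match to the first form on the opposite strand, with 10 bases on either side, is given on the gene's strand, the core in capitals.
ERO1A, chr14:52695658-52695682: ggcgccgcggCACGTccacaggctg
The box CCAAT, which is part of the first element and whose reverse complement is part of the second, was in 28 members (77.8% against 34.6%). The unfolded protein response element TGACGTG, which contains the first core form, was in 1 member (HYOU1, where it overlaps the second element), 2.78% against 1.96%. The amino acid response element TGATGNAA was in HERPUD1 alone, 2.78% against 3.63%. A match describes the letters in the window and says nothing of binding.

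Values are FPKM, fragments scaled by transcript length and library size, so levels can be set side by side between genes. Sums per library ran from 351501 to 425094 FPKM, with 22787 to 24667 genes above 0, and the depth in reads is unknown. CA9, ADM and NDRG1, which low oxygen raises in most cells, were higher in every hypoxic library than in any normoxic library of the same line. KYSE410 expressed the squamous markers KRT5, KRT14, TP63 and DSG3, whereas in KYSE150 these, KRT6A and CDH1 were at or near 0 and KRT17, KRT8 and KRT18 were present, so KYSE150 carried few of the defining squamous transcripts; SOX2 was near 0 in both. These markers moved with oxygen. In KYSE410, 5 of 7 squamous markers were higher in hypoxia (KRT5 by 1.503, KRT6A by 1.64, KRT14 by 2.18, KRT17 by 2.94 and TP63 by 0.56) and DSG3 was lower (-0.78), with summed levels of 312 to 319.8 FPKM in normoxia and 1154 to 1170 in hypoxia. All 4 general epithelial markers were lower there (EPCAM -0.33, CDH1 -0.88, KRT8 -0.76 and KRT18 -1.03), from sums of 1915 to 2038 FPKM to 1051 to 1104. In KYSE150 KRT17 (1.01) and EPCAM (0.51) were higher. The leukocyte and endothelial markers and the plasma cell genes MZB1, JCHAIN and IRF4 had at most 0.386 FPKM or had no row in a table, while SDC1 was present in both lines and, like 9 of the 39 genes, was lower in KYSE150 hypoxia (-0.66) and higher in KYSE410 hypoxia (0.53). COL1A1 (4.48 to 6.05 FPKM) and DES (1.02 to 2.48) were present at low levels in KYSE150, both lower in hypoxia. The part of any of these markers in the results was not tested. KYSE150 normoxia replicate 2 stood apart: the SD of its log2 differences from the other libraries of its group was 0.339 and 0.369, where other pairs within a group gave 0.153 to 0.197. Sample-sheet numbers in the labels run from 50 to 55 for KYSE150, but are 38 to 40 for KYSE410 normoxia and 56 to 58 for KYSE410 hypoxia. In KYSE410, oxygen and a library set inferred from these numbers therefore cannot be told apart, and the same limit holds for each difference between the lines. In a bulk culture, fewer cells of a kind and less RNA per cell cannot be told apart either.

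In KYSE150, more of these genes were lower in hypoxia than higher. Of 38 members tested, 6 were higher, 21 were lower and 11 were not called (limma on log2(FPKM + 1), adjusted p under 0.05 over all tested genes). Over all 12692 tested genes, 62.3% were called, 23.5% as higher and 38.8% as lower. The median change of the members was -0.39, against -0.13 over all genes, where a change is the fitted hypoxia minus normoxia difference on the log2(FPKM + 1) scale. A change of at least 1 with a call was seen in 8 members (12.2% of all genes), and groups did not overlap for 29 (69.6% of all genes). Without normoxia replicate 2, 7 members were higher and 25 lower, and all genes moved too, with 3661 higher and 5756 lower of 12678.

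In KYSE410 the balance was the other way. Of 38 members tested, 19 were higher, 13 lower and 6 not called, whereas 83.1% of all 12054 tested genes were called, 31.2% as higher and 51.9% as lower. The members' median change was 0.22, while that of all genes was -0.21. A called change of at least 1 was seen in 9 members (21.6% of all genes), and 34 members had groups that did not overlap (84.6% of all genes). Scaling moved these splits. Median-of-ratios scaling shifted the median of all genes to 0.00 in KYSE150 and 0.01 in KYSE410, and gave 8 higher and 17 lower members in KYSE150 and 24 and 7 in KYSE410 (all genes 3917 higher and 3805 lower, and 5032 and 4969). Rescaling to a common sum moved the KYSE410 median of all genes to -0.42 and gave 18 members higher and 18 lower (all genes 2737 and 7548). Each member's change in each line is plotted by role.

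**Figure D1:**
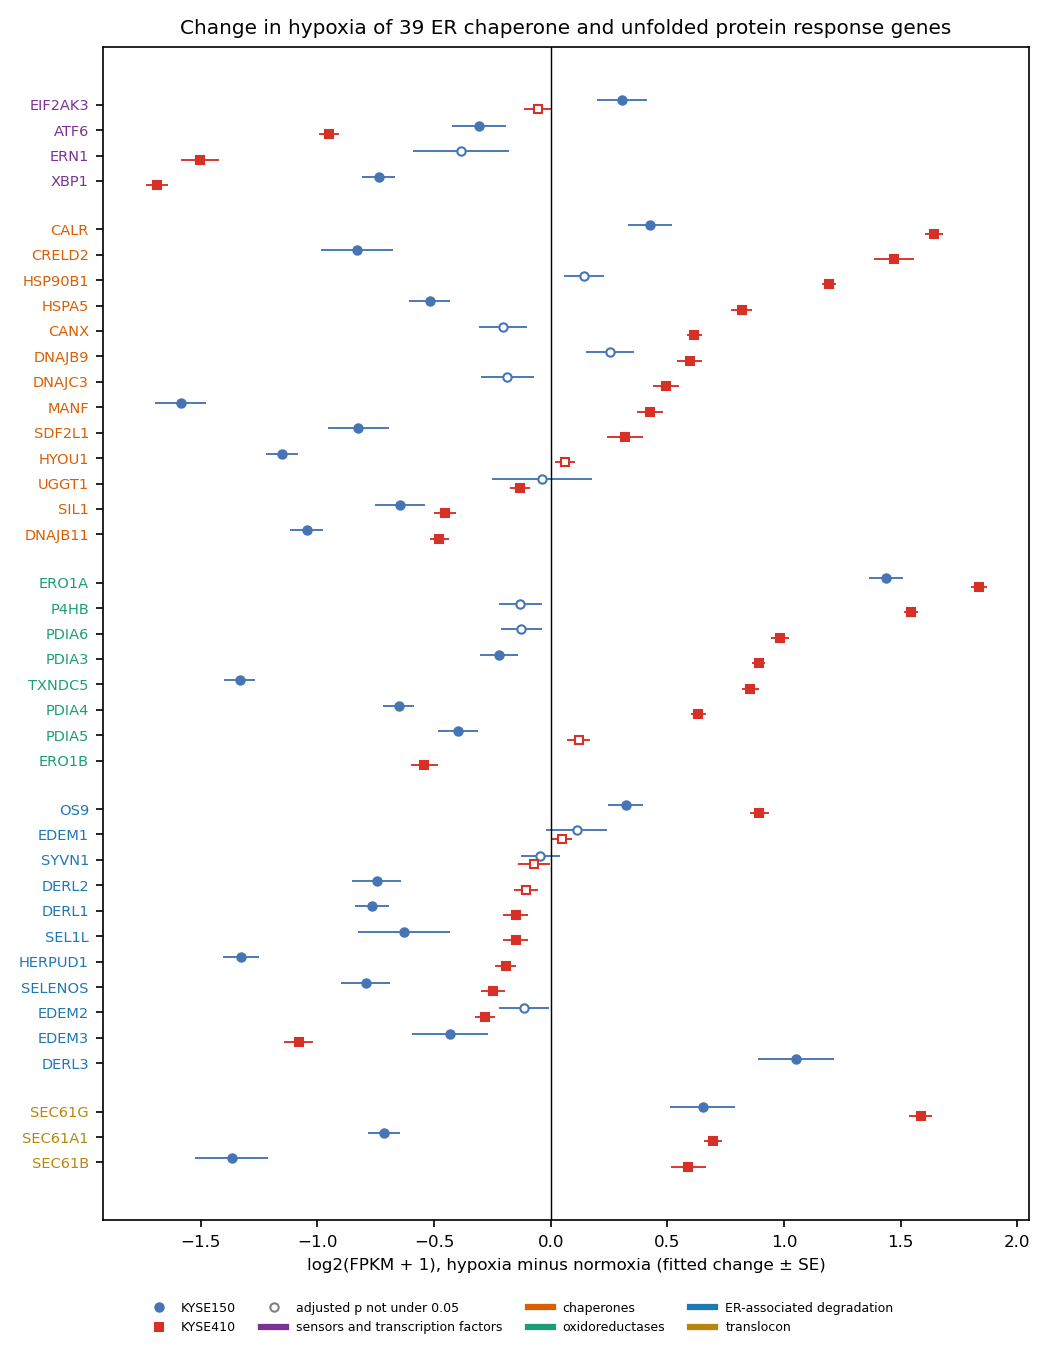
Fitted change in log2(FPKM + 1), hypoxia minus normoxia, with its SE for the 39 genes in KYSE150 (blue circles) and KYSE410 (red squares), grouped by role, with 3 libraries per group; open symbols did not pass the test. Chaperones and oxidoreductases lie mostly right of 0 in KYSE410 (up to 1.84 for ERO1A) and mostly left of 0 in KYSE150 (down to -1.59 for MANF); in KYSE410 CANX crosses 0 under quantile normalization, and HYOU1 and PDIA5 on a common sum.

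In KYSE410 the sensors and the chaperones differed in sign, with median changes of -1.23 and 0.49, whereas both medians were below 0 in KYSE150 (-0.35 and -0.52). XBP1, the transcription factor whose message IRE1 splices (chr22:28794555-28800597, minus strand), had 92.5, 98.4 and 89.3 FPKM in the KYSE150 normoxia libraries and 54.6, 57.3 and 54.7 in hypoxia. In KYSE410 it had 76.9, 71.9 and 74.1 FPKM in normoxia against 23.5, 22.7 and 21.0 in hypoxia. Every hypoxic library was below every normoxic one in both lines, and by far the most in KYSE410. The changes were -0.74 ± 0.07 in KYSE150 (adjusted p = 6.944e-05) and -1.69 ± 0.05 in KYSE410 (adjusted p = 1.658e-08). The tables give 1 value per gene, so the spliced and unspliced forms of XBP1 are not separated.

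ERN1, the IRE1 kinase and RNase (chr17:64039142-64130819, minus strand), was low in both lines. It had 3.74, 4.25 and 4.16 FPKM in KYSE410 normoxia and 0.913, 0.770 and 0.668 in hypoxia, a change of -1.50 ± 0.08 (adjusted p = 3.724e-07). In KYSE150 it had 3.31, 1.36 and 2.58 FPKM in normoxia against 1.31, 1.69 and 1.64 in hypoxia. There the groups overlapped through normoxia replicate 2, and the change of -0.39 ± 0.21 did not pass (adjusted p = 0.139). Without that library the KYSE150 change was -0.63 and passed (adjusted p = 0.00132).

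ATF6, the sensor that becomes a transcription factor once it is cut in the Golgi, had 15.9, 16.6 and 16.9 FPKM in KYSE410 normoxia and 8.25, 7.97 and 7.91 in hypoxia. The KYSE410 groups were far apart, and the change was -0.95 ± 0.04 (adjusted p = 1.669e-07; -0.475 with trends of transcript length and GC content removed). In KYSE150 it had 19.6, 14.9 and 20.4 FPKM in normoxia against 14.2, 14.5 and 14.7 in hypoxia, again with normoxia replicate 2 lowest and close to the hypoxic values. That change, -0.31 ± 0.12, passed narrowly (adjusted p = 0.0484) and was not called under median-of-ratios scaling (-0.16, adjusted p = 0.265), nor without any one library other than normoxia replicate 2 (adjusted p from 0.101 to 0.144). EIF2AK3, which encodes PERK, was higher in KYSE150, with 3.05, 2.68 and 3.66 FPKM in normoxia against 4.28, 3.78 and 4.19 in hypoxia (0.30 ± 0.11, adjusted p = 0.0389). The call was lost on a common sum (adjusted p = 0.074) and without any one of normoxia replicates 1 and 2 and hypoxia replicates 1, 2 and 3 (adjusted p from 0.0512 to 0.119). In KYSE410 it was not called, at 3.62 ± 0.174 and 3.44 ± 0.109 FPKM (SD, n = 3) with a change of -0.06 ± 0.06, and under median-of-ratios scaling the value turned to 0.14 (adjusted p = 0.0434). Over the group, KYSE150 had 1 sensor higher and 2 lower, and KYSE410 none higher and 3 lower, with median changes of -0.35 and -1.23. Over all genes 23.5% were higher and 38.8% lower in KYSE150, and 31.2% and 51.9% in KYSE410.

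Among the 13 chaperones and helper proteins, KYSE150 had 1 higher and 7 lower (all tested genes 23.5% and 38.8%), and KYSE410 had 9 higher and 3 lower (all tested genes 31.2% and 51.9%). Their median change was -0.52 in KYSE150 and 0.49 in KYSE410. Without KYSE150 normoxia replicate 2 the KYSE150 counts were 3 higher and 10 lower (all genes 3661 and 5756 of 12678). HSPA5, the lumenal HSP70 BiP that also holds the sensors inactive (chr9:125234853-125241330, minus strand), had 493, 559 and 510.5 FPKM in KYSE150 normoxia and 355, 385 and 349 in hypoxia. Its KYSE410 values were 202, 185 and 182 FPKM in normoxia against 327, 329.9 and 347 in hypoxia. The groups were apart in both lines and in opposite orders, so that KYSE410 began far below KYSE150 and ended near it. The changes were -0.52 ± 0.09 (adjusted p = 0.00146) and 0.82 ± 0.04 (adjusted p = 4.732e-07), and the KYSE410 value was 0.30 under quantile normalization.

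HSP90B1, the ER form of HSP90 known as GRP94 (chr12:103930107-103953645), had 187, 189 and 183 FPKM in KYSE410 normoxia and 428, 439 and 414 in hypoxia, a change of 1.19 ± 0.03 (adjusted p = 1.092e-08; 0.59 under quantile normalization). In KYSE150 it had 319, 349.5 and 329 FPKM in normoxia against 342, 382 and 378 in hypoxia. The KYSE150 groups overlapped and the change of 0.14 ± 0.09 was not called (adjusted p = 0.179), although it passed under median-of-ratios scaling (0.30, adjusted p = 0.018) and without normoxia replicate 2 (0.18, adjusted p = 0.0121). HSPA5 and HSP90B1 thus changed by unequal amounts: the ratio of their FPKM went from 1.55, 1.6 and 1.55 to 1.04, 1.01 and 0.924 in KYSE150 and from 1.08, 0.978 and 0.993 to 0.765, 0.752 and 0.838 in KYSE410. This ratio was lower in every hypoxic library than in any normoxic one of the same line.

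CALR and CANX bind monoglucosylated glycoproteins in the lumen and in the membrane. CALR (chr19:12938578-12944489) had 195, 231 and 189.6 FPKM in KYSE150 normoxia and 273, 283 and 268 in hypoxia, and 78.6, 71.8 and 76.6 in normoxia against 235, 242 and 238 in hypoxia in KYSE410. It was the 1 chaperone called higher in both lines, by 0.42 ± 0.09 (adjusted p = 0.00515) and 1.64 ± 0.04 (adjusted p = 7.804e-09). CANX had 235, 252 and 240.4 FPKM in KYSE410 normoxia and 369, 379 and 368 in hypoxia, a change of 0.62 ± 0.03 (adjusted p = 4.595e-07) whose direction turned under quantile normalization (-0.07, adjusted p = 0.173). In KYSE150 CANX had 362, 295 and 371 FPKM in normoxia against 289, 297 and 300.4 in hypoxia, where normoxia replicate 2 lay among the hypoxic values. The change of -0.20 ± 0.10 did not pass (adjusted p = 0.12), and without that library it was -0.31 (adjusted p = 5.438e-05). UGGT1, which re-glucosylates misfolded glycoproteins for another round with these lectins, was not called in KYSE150 (normoxia 18.0, 10.03 and 19.6, hypoxia 15.1, 14.2 and 15.3 FPKM). Without KYSE150 normoxia replicate 2 it was lower there (-0.32, adjusted p = 0.00164). In KYSE410 UGGT1 was lower by a small amount (-0.13 ± 0.04, adjusted p = 0.0183), and median-of-ratios scaling turned it to 0.10 (adjusted p = 0.0471). That call was also lost without normoxia replicate 2, hypoxia replicate 1 or hypoxia replicate 3 (adjusted p from 0.0549 to 0.0574).

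MANF and CRELD2, secreted or lumenal factors that cells make in ER stress, gave the widest gaps between the lines among the chaperone group. MANF (chr3:51385047-51389397) had 95.8, 120.3 and 92.8 FPKM in KYSE150 normoxia and 35.8, 33.0 and 31.5 in hypoxia. In KYSE410 it had 27.3, 28.5 and 24.5 FPKM in normoxia against 36.5, 36.7 and 35.3 in hypoxia. The lines were far apart in normoxia and nearly at the same level in hypoxia. The changes were -1.59 ± 0.11 (adjusted p = 1.581e-05) and 0.42 ± 0.06 (adjusted p = 1.179e-04; 0.19 when rescaled to a common sum). CRELD2 had 6.61, 10.2 and 6.51 FPKM in KYSE150 normoxia, with replicate 2 highest, and 3.97, 3.63 and 3.92 in hypoxia. Its KYSE410 values were 3.26, 2.93 and 2.78 FPKM in normoxia against 9.50, 9.33 and 11.5 in hypoxia. All groups were apart, with changes of -0.83 ± 0.15 (adjusted p = 0.00214) and 1.47 ± 0.09 (adjusted p = 6.182e-07). CRELD2 shares exonic bases with ALG12 on the opposite strand, which had at most 1.81 FPKM in any library. Strand use in the counting is not given in the sources used here.

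Helpers of HSPA5 split. DNAJB9, a J-domain partner that IRE1 and XBP1 induce, had 6.50, 7.23 and 6.81 FPKM in KYSE410 normoxia and 10.4, 11.1 and 11 in hypoxia (0.59 ± 0.05, adjusted p = 1.007e-05). DNAJC3, the J-domain protein p58IPK, changed alike in that line, by 0.49 ± 0.05 from 6.57 ± 0.325 to 9.66 ± 0.395 FPKM (adjusted p = 3.588e-05). In KYSE150 neither passed, with changes of 0.25 ± 0.10 and -0.19 ± 0.11. Both passed in opposite directions without normoxia replicate 2 (DNAJB9 0.26, adjusted p = 0.0455, and DNAJC3 -0.30, adjusted p = 0.00455), and DNAJB9 also without normoxia replicate 1 (0.32, adjusted p = 0.0479). DNAJB11, the J-domain partner ERdj3, was lower in both lines, from 55.9 ± 3.18 to 26.5 ± 0.604 FPKM in KYSE150 (-1.05 ± 0.07) and, in KYSE410, from 46.2 ± 1.45 to 32.9 ± 1.05 (-0.48 ± 0.04; -0.23 under median-of-ratios scaling and -0.125 with length and GC trends removed). SIL1, a nucleotide exchange factor for HSPA5, was also lower in both, with changes of -0.65 ± 0.11 and -0.45 ± 0.05 (in KYSE410 -0.22 under median-of-ratios scaling). Opposite-strand neighbours share exonic bases with these helpers: THAP5 and PNPLA8 with DNAJB9, TBCCD1 with DNAJB11, and MATR3 with SIL1. THAP5 (11.5 to 13.4 FPKM in KYSE150 normoxia and 7.17 to 8.08 in hypoxia) was about as abundant as DNAJB9, and MATR3 (51.8 to 73.6 FPKM over all libraries) was more abundant than SIL1. For DNAJB11 and SIL1, as for most members, the hypoxic libraries lay on one side of all normoxic libraries of their line.

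HYOU1, the large HSP70-like exchange factor GRP170, had 92.5, 86.9 and 93.7 FPKM in KYSE150 normoxia and 41.2, 39.6 and 40.4 in hypoxia, a change of -1.15 ± 0.07 (adjusted p = 6.953e-06). In KYSE410 it had 58.1, 62.7 and 56.9 FPKM in normoxia against 60.2, 62.4 and 62.6 in hypoxia. Those groups overlapped, and the change of 0.06 ± 0.04 was not called (adjusted p = 0.216) but passed under median-of-ratios scaling (0.31, adjusted p = 7.814e-05) and changed sign when rescaled to a common sum (-0.18). It also passed without KYSE410 normoxia replicate 2 (0.10, adjusted p = 0.0363). SDF2L1, a partner of the J-domain proteins, had 17.7, 23.5 and 16.5 in normoxia against 10.3, 9.56 and 11.1 FPKM in hypoxia in KYSE150 (-0.82 ± 0.13, adjusted p = 9.735e-04), and 6.64, 5.57 and 5.41 in normoxia against 7.59, 7.95 and 7.08 in hypoxia in KYSE410 (0.32 ± 0.08, adjusted p = 0.00491). The small KYSE410 rise was not called when the values were rescaled to a common sum (0.10, adjusted p = 0.262) or with length and GC trends removed (0.12, adjusted p = 0.119). The plot of values by library shows 12 members in all 4 groups.

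**Figure D2:**
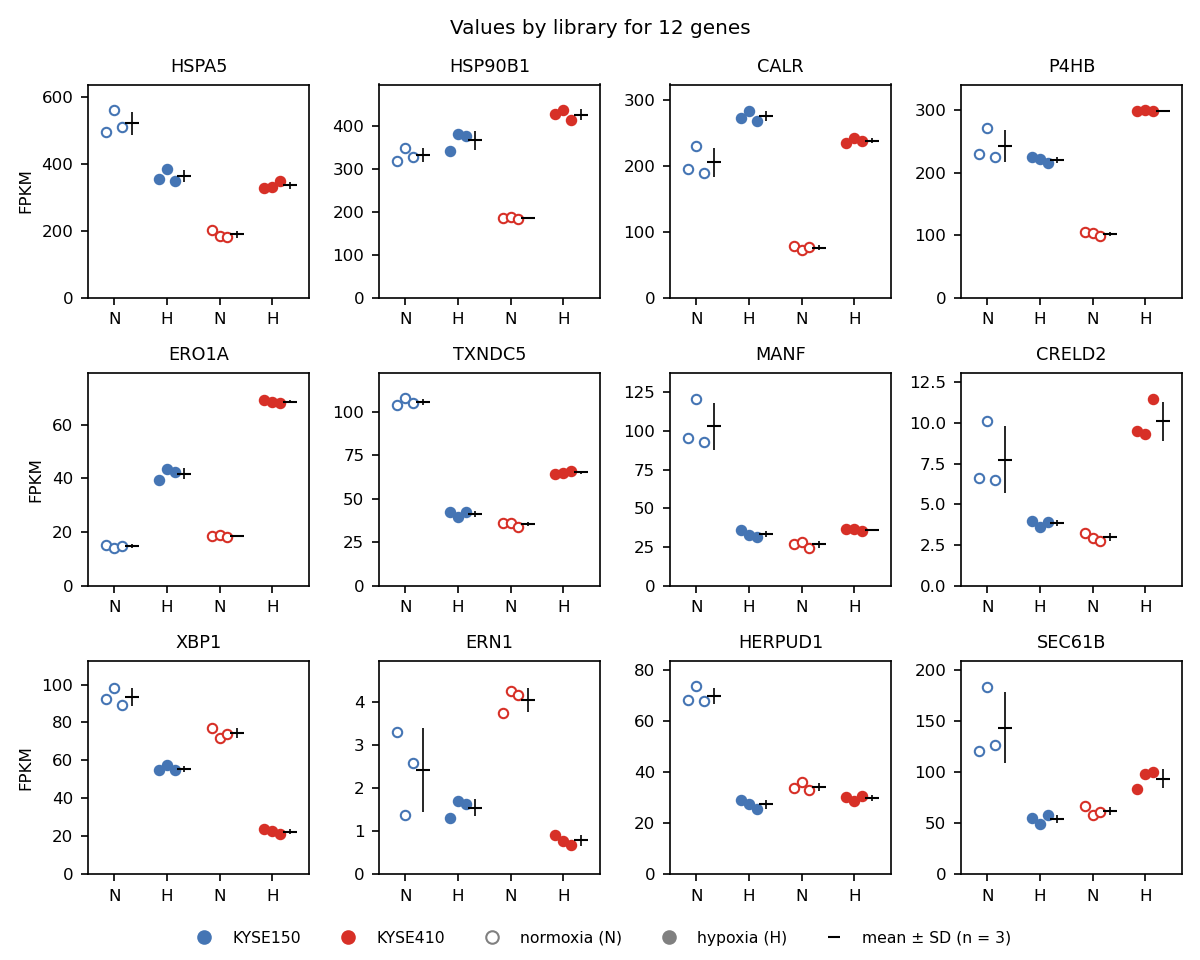
FPKM of 12 genes in each library (points) with the mean ± SD of 3 libraries (black), for KYSE150 (blue) and KYSE410 (red) in normoxia (N, open) and hypoxia (H, filled); each axis starts at 0. HSPA5, TXNDC5, MANF, CRELD2 and SEC61B move down in KYSE150 and up in KYSE410, XBP1 moves down in both and ERO1A up in both.

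Of the 8 oxidoreductases, 6 were higher and 1 was lower in KYSE410, where 31.2% and 51.9% of all genes were, and their median change was 0.87. In KYSE150, 1 of 7 tested was higher and 4 were lower (all genes 23.5% and 38.8%), with a median of -0.22. ERO1A, the oxidase that passes electrons from protein disulfide isomerase to oxygen (chr14:52639916-52695900, minus strand), had 15.4, 13.9 and 15.0 FPKM in KYSE150 normoxia and 39.3, 43.5 and 42.4 in hypoxia. Its KYSE410 values were 18.5, 18.8 and 18.2 FPKM in normoxia against 69.4, 68.3 and 68.1 in hypoxia. Normoxic levels of the lines were close, and all hypoxic libraries were well above them. Its changes of 1.44 ± 0.07 (adjusted p = 4.045e-06) and 1.83 ± 0.03 (adjusted p = 2.690e-09) were the highest of any member in either line. Its paralog ERO1B went the other way in KYSE410, with 3.94, 3.95 and 4.04 FPKM in normoxia against 2.33, 2.37 and 2.55 in hypoxia (-0.54 ± 0.06, adjusted p = 3.200e-05; -0.35 under median-of-ratios scaling and -0.16 with length and GC trends removed). In KYSE150 ERO1B had 0.567, 0.309 and 0.548 FPKM in normoxia against 0.101, 0.134 and 0.181 in hypoxia, under the filter of a mean of 1 FPKM, and was not tested. Within a library, ERO1A exceeded ERO1B by 4.5 to 4.77 times in KYSE410 normoxia and by 26.7 to 29.8 times in hypoxia.

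P4HB, the classical protein disulfide isomerase and a subunit of collagen prolyl hydroxylase (chr17:81843159-81860694, minus strand), had 104, 103 and 98.6 FPKM in KYSE410 normoxia and 299, 299.8 and 299 in hypoxia. The groups were far apart, the hypoxic mean being 2.93 times the normoxic one, a change of 1.54 ± 0.03 (adjusted p = 4.298e-09). In KYSE150 it had 230.4, 271 and 224 FPKM in normoxia against 224, 221 and 216 in hypoxia. That small difference did not pass (-0.13 ± 0.09, adjusted p = 0.249) and had the other sign under median-of-ratios scaling (0.03). PDIA6, another isomerase of the family, followed the same course: 103 ± 3.34 to 204 ± 7.54 FPKM in KYSE410 (0.98 ± 0.04, adjusted p = 7.382e-08) and 135 ± 14.0 to 123 ± 1.64 in KYSE150 (-0.13 ± 0.09, adjusted p = 0.242; 0.03 under median-of-ratios scaling).

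TXNDC5, an isomerase also called ERp46, had 104, 108 and 105 FPKM in KYSE150 normoxia and 42.3, 39.3 and 42.4 in hypoxia. In KYSE410 it had 36.3, 36.4 and 34.0 FPKM in normoxia against 64.4, 64.9 and 66.2 in hypoxia. The order of the lines was exchanged: KYSE150 was higher in normoxia and KYSE410 in hypoxia, without overlap. The changes were -1.33 ± 0.07 (adjusted p = 3.724e-06) and 0.86 ± 0.04 (adjusted p = 1.308e-07). A readthrough transcript, BLOC1S5-TXNDC5, shares its exons and had at most 3.65 FPKM. PDIA4, which carries extra active sites, had 82.7, 85.0 and 83.3 in normoxia against 55.2, 52.2 and 51.3 FPKM in hypoxia in KYSE150 and 42.6, 43.2 and 41.2 in normoxia against 66.9, 66.4 and 65.4 in hypoxia in KYSE410, again with opposite and non-overlapping shifts (-0.65 ± 0.07 and 0.63 ± 0.03). PDIA3, the isomerase ERp57 that works with CALR and CANX, was higher in KYSE410, from 62.5 ± 0.826 to 117 ± 1.35 FPKM (0.89 ± 0.03, adjusted p = 2.960e-08). In KYSE150 it fell from 127 ± 10.9 to 109 ± 2.46 FPKM, a change of -0.22 ± 0.08 that passed narrowly (adjusted p = 0.0453) and was lost under median-of-ratios scaling (adjusted p = 0.531). It was lost too without normoxia replicate 1 or hypoxia replicate 1, 2 or 3 (adjusted p from 0.0918 to 0.14). Its processed pseudogene PDIA3P1, with which reads can be shared, had 5.52 to 6.13 FPKM in KYSE410 normoxia and 9.86 to 10.4 in hypoxia. PDIA5 was lower in KYSE150 (-0.40 ± 0.09, adjusted p = 0.00436) and not called in KYSE410 (0.12 ± 0.05, adjusted p = 0.0564), where it passed under median-of-ratios scaling (0.35) and without normoxia replicate 1 (0.15, adjusted p = 0.0453). SEC22A on the same strand shares exonic bases with PDIA5. It had 5.36 to 6.39 FPKM in KYSE150 normoxia and 3.49 to 3.86 in hypoxia, and 3.785 to 4.775 and 2.47 to 3.02 in KYSE410.

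ERAD genes in KYSE150 included 2 higher and 6 lower of 11 (all genes 23.5% and 38.8%), with a median change of -0.43 (-0.15 in KYSE410). In KYSE410 1 was higher and 6 lower of 10 tested, so the share lower was near the 51.9% of all genes (31.2% were higher). Apart from EDEM3 these falls were small, and the split depended on scaling. Under median-of-ratios scaling 2 were higher and 1 lower (all genes 5032 and 4969 of 12044). With trends of transcript length and GC content removed 6 were higher and 2 lower (all genes 4742 and 4566 of 11256). HERPUD1, a membrane scaffold of the ligase complex (chr16:56932048-56944863), had 68.2, 73.4 and 67.8 FPKM in KYSE150 normoxia and 29.04, 27.3 and 25.4 in hypoxia (-1.33 ± 0.08, adjusted p = 7.031e-06). Its KYSE410 values were 33.5, 36.0 and 32.8 FPKM in normoxia against 30.2, 28.5 and 30.4 in hypoxia. The KYSE410 groups were close but did not overlap, and their change of -0.19 ± 0.05 (adjusted p = 0.00425) was not called under median-of-ratios scaling, where it was 0.05. SEL1L, the adaptor of the HRD1 ligase, had 19.2, 11.3 and 20.3 FPKM in KYSE150 normoxia and 9.75, 9.84 and 11.3 in hypoxia, with normoxia replicate 2 equal to the highest hypoxic value. Its KYSE150 change was -0.63 ± 0.20 (adjusted p = 0.0248), or -0.88 without that library. It was not called under median-of-ratios scaling (adjusted p = 0.0646), nor without hypoxia replicate 1 or 2 or normoxia replicate 1 or 3 (adjusted p from 0.069 to 0.0798). In KYSE410 SEL1L changed by -0.15 ± 0.05 (adjusted p = 0.024), turning to 0.09 under median-of-ratios scaling (adjusted p = 0.107). That call was lost without hypoxia replicate 1 or 3 or normoxia replicate 1 or 2 (adjusted p from 0.0527 to 0.0758). SYVN1, the HRD1 ligase itself, was not called in either line, with 10.4 ± 0.392 and 10.1 ± 0.794 FPKM in KYSE150 and 9.23 ± 0.344 and 8.75 ± 0.833 in KYSE410. SYVN1 shares exonic bases with the far more abundant FAU (202 to 440.0 FPKM).

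The derlins, channel proteins of the retrotranslocation step, differed among themselves. DERL1 had 20.9, 19.9 and 20.2 FPKM in KYSE150 normoxia and 12.02, 10.9 and 11.7 in hypoxia (-0.77 ± 0.07, adjusted p = 6.194e-05). DERL2 had 6.95, 8.49 and 7.41 in normoxia against 4.66, 3.83 and 3.92 in hypoxia (-0.75 ± 0.10, adjusted p = 4.827e-04). DERL2 shares exonic bases with MIS12 on the opposite strand, which had 26.9 to 30.2 FPKM in KYSE150 normoxia and 11.4 to 12.1 in hypoxia. In KYSE410 both changes were small: DERL1 passed (-0.15 ± 0.05, adjusted p = 0.0302), DERL2 did not (-0.10 ± 0.05, adjusted p = 0.0935), and both were above 0 under median-of-ratios scaling (0.09 and 0.12). The DERL1 call was lost without hypoxia replicate 2 or normoxia replicate 2 or 3 (adjusted p from 0.0608 to 0.104), and DERL2 was called without hypoxia replicate 3 (-0.14, adjusted p = 0.0364). DERL1 shares exonic bases with TBC1D31 on the opposite strand. TBC1D31 had 7.58 to 8.66 FPKM in KYSE150 normoxia and 4.14 to 5.40 in hypoxia, and 5.15 to 6.05 and 2.47 to 3.48 in KYSE410. DERL3, the member of the family typical of secretory cells, had 2.65, 1.40 and 2.23 FPKM in KYSE150 normoxia and 5.61, 5.85 and 4.57 in hypoxia, a rise of 1.05 ± 0.16 (adjusted p = 8.615e-04). In KYSE410 DERL3 was listed at 0 in every library but normoxia replicate 1 (0.00929 FPKM). DERL3 overlaps SMARCB1 on the opposite strand, which had 11.4 to 14.3 FPKM in KYSE150 normoxia and 17.9 to 18.6 in hypoxia. SMARCB1 also had 12.9 to 18.3 FPKM in KYSE410, where DERL3 was at or near 0.

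The lectins and mannosidases that select glycoproteins for ERAD divided as well. OS9, a lectin of the HRD1 complex (chr12:57693955-57721557), had 51.7, 56.8 and 49.2 FPKM in KYSE150 normoxia and 66.1, 65.4 and 65.8 in hypoxia. In KYSE410 it had 42.2, 41.7 and 39.05 FPKM in normoxia against 78.03, 74.3 and 78.7 in hypoxia. OS9 was the 1 ERAD member called higher in both lines (0.32 ± 0.07, adjusted p = 0.00656, and 0.89 ± 0.04, adjusted p = 1.715e-07). EDEM3, a mannosidase, had 6.71, 7.42 and 6.64 FPKM in KYSE410 normoxia and 2.63, 2.88 and 2.73 in hypoxia (-1.08 ± 0.06, adjusted p = 6.203e-07; -0.61 with length and GC trends removed). In KYSE150 its normoxic values were 6.03, 3.56 and 5.78 and its hypoxic values 3.42, 3.50 and 3.45, with replicate 2 again beside the hypoxic libraries (-0.43 ± 0.16, adjusted p = 0.0464; not called under median-of-ratios scaling, -0.31, or without any one library other than that one, adjusted p from 0.102 to 0.144). EDEM1 was called in neither line (0.11 and 0.05) but was higher in KYSE410 under median-of-ratios scaling (0.28) and lower on a common sum (-0.18). EDEM2 was not called in KYSE150 (-0.12) and was lower in KYSE410 (-0.28 ± 0.04, adjusted p = 3.340e-04; -0.04 and not called under median-of-ratios scaling). SELENOS, a selenoprotein that links derlins to the p97 ATPase, was lower in both lines, from 50.2 ± 7.05 to 28.4 ± 1.64 FPKM in KYSE150 (-0.79 ± 0.11) and, in KYSE410, from 34.7 ± 2.25 to 28.98 ± 0.847 (-0.25 ± 0.05; not called under median-of-ratios scaling, adjusted p = 0.929).

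The 3 subunits of the SEC61 channel did not move together in KYSE150, where 1 was higher and 2 were lower (all genes 23.5% and 38.8%). SEC61A1, the pore (chr3:128051641-128071683), had 93.3, 90.2 and 96.7 FPKM in KYSE150 normoxia and 58.5, 54.8 and 56.3 in hypoxia, a change of -0.71 ± 0.07 (adjusted p = 6.944e-05). SEC61A1 shares exonic bases with RUVBL1 on the opposite strand, which was lower in every hypoxic library of both lines (71.0 to 88.4 FPKM in normoxia, 36.8 to 49.4 in hypoxia). SEC61B, a small tail-anchored subunit, had 121, 184 and 126 in normoxia against 55.4, 49.6 and 57.6 in hypoxia (-1.37 ± 0.16, adjusted p = 1.743e-04), with normoxia replicate 2 well above its group. SEC61G, the other small subunit (chr7:54752250-54759974, minus strand), had 158, 225 and 159.5 in normoxia against 282, 286 and 275 in hypoxia (0.65 ± 0.14, adjusted p = 0.0042). So the pore and SEC61B were lower and SEC61G higher, with no overlap in any of the 3. The FPKM ratio of SEC61G to SEC61B was 1.3, 1.23 and 1.26 in KYSE150 normoxia and 5.08, 5.77 and 4.78 in hypoxia. In KYSE410 all 3 subunits were higher, where 31.2% of all genes were higher and 51.9% lower. SEC61A1 had 36.2, 35.6 and 34.6 FPKM in normoxia against 56.0, 58.0 and 60.2 in hypoxia (0.70 ± 0.04). SEC61B had 66.6, 58.1 and 60.9 in normoxia against 83.5, 98.1 and 99.8 in hypoxia (0.59 ± 0.07; 0.35 on a common sum and 0.365 with length and GC trends removed), and SEC61G had 155, 156 and 167 in normoxia against 447, 494 and 499 in hypoxia (1.58 ± 0.05). The adjusted p was at most 9.297e-05 for the 3, and the SEC61G to SEC61B ratio again separated the groups, at 2.33, 2.68 and 2.74 against 5.35, 5.03 and 5.

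Set side by side, 9 of the 37 members tested in both lines were lower in KYSE150 and higher in KYSE410, against 4.94% of the 10951 genes tested in both. They were HSPA5, SDF2L1, CRELD2, MANF, PDIA3, PDIA4, TXNDC5, SEC61A1 and SEC61B. No member was called in the reverse pattern, and opposite calls of either kind made up 10.3% of all genes. Lower in both were 9 members (ATF6, XBP1, DNAJB11, SIL1, SEL1L, HERPUD1, EDEM3, DERL1 and SELENOS), against 29.4% of all genes, and higher in both were 4 (CALR, ERO1A, OS9 and SEC61G), against 13.8%. Calls in the same direction in both lines thus covered 13 members, and 43.3% of all genes. Across the alternatives run, the members lower in KYSE150 and higher in KYSE410 numbered 8 to 12, those lower in both 3 to 11 and those higher in both 4 to 8. Over all genes the same counts moved too, from 276 to 643, 2010 to 3790 and 1036 to 2505. The genes tested in both lines then numbered 6700 to 26115. The changes in the 2 lines had a Pearson r of 0.373 and a Spearman rho of 0.349 over the 37 genes, given as a description because genes of a library share its depth and scaling.

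**Figure D3:**
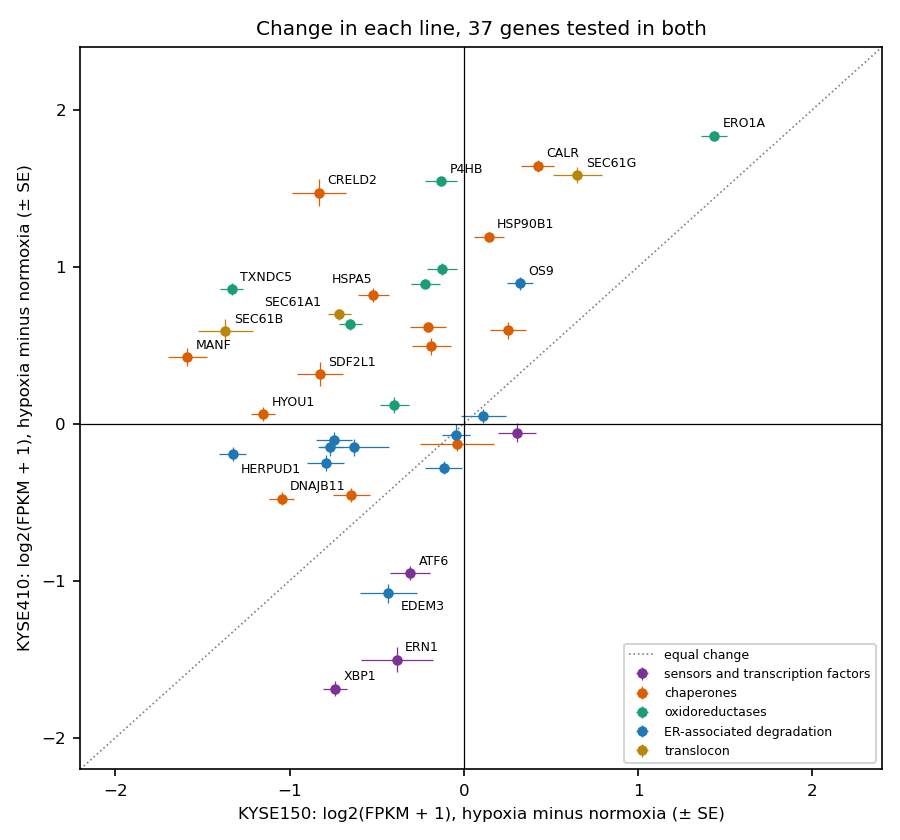
Fitted change in log2(FPKM + 1), hypoxia minus normoxia, in KYSE150 (horizontal) and KYSE410 (vertical) for the 37 genes tested in both, coloured by role, with SE bars in both directions and a dotted line of equal change. Most chaperones, oxidoreductases and translocon genes lie above the line, the farthest being CRELD2 (-0.83 and 1.47), while XBP1, ERN1, ATF6 and EDEM3 lie below it.

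The difference between the lines was tested as the interaction of line and oxygen in a joint fit of the 12 libraries. Of 39 members, 26 had a higher response in KYSE410, 6 a lower one and 7 were not called. Among all 12653 genes 63.3% were called, 27.3% as higher and 36% as lower. The median difference (KYSE410 minus KYSE150) was 0.62 over the members and -0.09 over all genes. All 4 sensors and transcription factors were on the lower side: XBP1 -0.95 ± 0.08 (adjusted p = 1.486e-06), ERN1 -1.12 ± 0.24 (adjusted p = 0.00154), ATF6 -0.64 ± 0.13 (adjusted p = 0.00101) and EIF2AK3 -0.36 ± 0.12 (adjusted p = 0.0199). EIF2AK3 was not called under median-of-ratios scaling (adjusted p = 0.0545), under quantile normalization (adjusted p = 0.146) or with length and GC trends removed (adjusted p = 0.114). CANX (adjusted p = 0.185) and EDEM3 (adjusted p = 0.0519) were not called under quantile normalization, nor ERO1A (0.15, adjusted p = 0.212) and DNAJB9 (0.11, adjusted p = 0.437) on a common sum. With length and GC trends removed the difference was -0.31 for ATF6, -0.72 for ERN1 and -0.34 for EDEM3. Chaperones had 11 higher and none lower of 13, oxidoreductases 7 and none of 8, and translocon subunits 3 of 3. ERAD genes were mixed, with 5 higher and 2 lower of 11.

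The largest differences were CRELD2 with 2.30 ± 0.19 (adjusted p = 1.201e-06), TXNDC5 with 2.19 ± 0.07 (adjusted p = 1.745e-09), MANF with 2.01 ± 0.13 (adjusted p = 1.815e-07), SEC61B with 1.96 ± 0.19 (adjusted p = 4.280e-06) and P4HB with 1.67 ± 0.09 (adjusted p = 6.141e-08). ERO1A, called higher in both lines, still differed, by 0.40 ± 0.07 (adjusted p = 6.770e-04), as did CALR, by 1.22 ± 0.10 (adjusted p = 1.153e-06). The members not called were UGGT1, SIL1, ERO1B, SEL1L, SYVN1, EDEM1 and EDEM2, with differences of -0.17 to 0.48. Without KYSE150 normoxia replicate 2, 28 members were higher and 7 lower (all genes 3738 and 4919 of 12618). SEL1L (0.73, adjusted p = 2.666e-05) and UGGT1 (0.19, adjusted p = 0.0312) joined the higher members and EDEM2 (-0.26, adjusted p = 0.0111) the lower ones. DNAJB9 (0.34 ± 0.12, adjusted p = 0.0239) lost its call without KYSE150 normoxia replicate 1, KYSE150 hypoxia replicate 1 or 3, KYSE410 normoxia replicate 1 or KYSE410 hypoxia replicate 2 (adjusted p from 0.0502 to 0.0619).

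Summed over members, the share of all FPKM in a KYSE150 library was 0.848%, 0.834% and 0.862% in normoxia and 0.702%, 0.731% and 0.715% in hypoxia. In KYSE410 it was 0.527%, 0.515% and 0.508% in normoxia and 0.774%, 0.8% and 0.784% in hypoxia. Normoxic KYSE150 was thus above normoxic KYSE410, and in hypoxia the order was exchanged. These shares are descriptions of 3 libraries per group and carry no test. The tables were deposited separately, so a level set across lines assumes that FPKM is comparable between them. The chaperones' share went from 0.458%, 0.432% and 0.471% to 0.372%, 0.4% and 0.387% in KYSE150 and from 0.254%, 0.249% and 0.244% to 0.372%, 0.381% and 0.368% in KYSE410. Hypoxic chaperone shares were nearly equal in the 2 lines. The oxidoreductases' share in KYSE410 went from 0.109%, 0.106% and 0.103% to 0.198%, 0.2% and 0.198%. The sensor share in KYSE410 went from 0.0285%, 0.0271% and 0.0278% to 0.00864%, 0.00837% and 0.00779%, and most of it was XBP1. The ratio of XBP1 to HSPA5 FPKM in KYSE410 was 0.382, 0.389 and 0.407 in normoxia and 0.0719, 0.0688 and 0.0603 in hypoxia. In KYSE150 it was 0.187, 0.176 and 0.175 and then 0.154, 0.149 and 0.157, a far smaller shift.

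**Figure D4:**
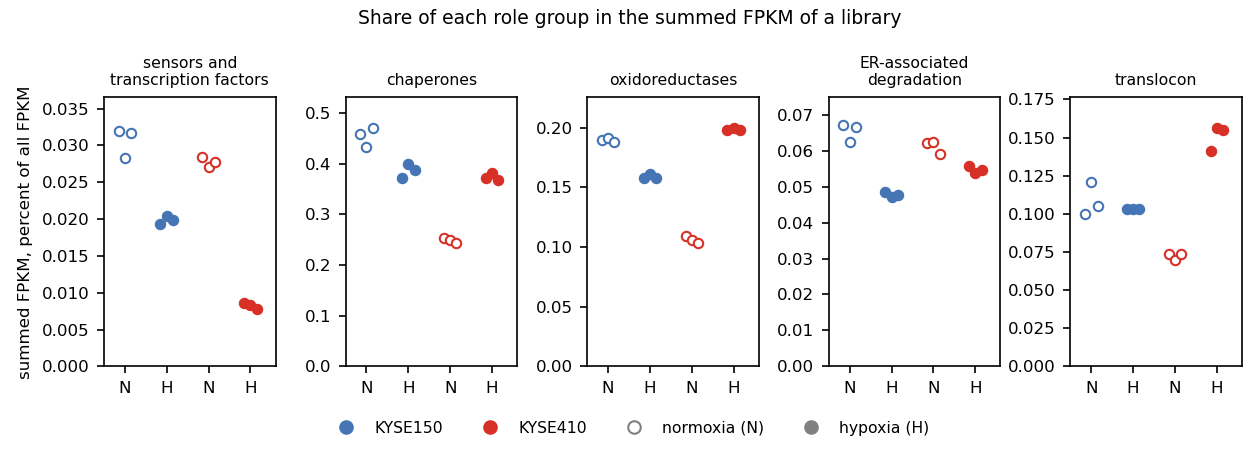
Summed FPKM of each role group as a percent of all FPKM, 1 point per library, for KYSE150 (blue) and KYSE410 (red) in normoxia (N, open) and hypoxia (H, filled); each axis starts at 0 and has its own scale. In KYSE410 the chaperone share is 0.254% or less in normoxia and 0.368% or more in hypoxia, while the sensor share is 0.00864% or less in hypoxia; in KYSE150 both are lower in hypoxia.

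By level, HSPA5 was the highest member in every KYSE150 normoxia library, followed by CANX (342 FPKM on average) and HSP90B1 (332), whose libraries overlapped. In KYSE410 hypoxia SEC61G led (159 FPKM in normoxia and 479.8 in hypoxia), above HSP90B1 (427), CANX (372) and HSPA5 (335). The lowest members were DERL3 in KYSE410 and ERO1B in KYSE150.

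Genes outside the 39 were read from 6 further lists of the pathway. Of 10 genes of the PERK branch, 1 was higher and 8 were lower in each line, against 38.8% of all genes lower in KYSE150 and 51.9% in KYSE410 (23.5% and 31.2% higher), with median changes of -1.28 in KYSE150 and -1.32 in KYSE410. DDIT3, which encodes the stress factor CHOP, had 76.1, 102 and 73.8 FPKM in KYSE150 normoxia and 17.6, 17.7 and 16.9 in hypoxia (-2.19 ± 0.12), and 50.9, 48.3 and 49.3 in normoxia against 13.7, 11.8 and 12.6 in hypoxia in KYSE410 (-1.88 ± 0.06). ATF4, the factor translated when PERK acts, went from 219 ± 25.9 to 69.6 ± 16.7 FPKM in KYSE150 (-1.66 ± 0.18) and, in KYSE410, from 158 ± 30.4 to 91.2 ± 2.04 (-0.77 ± 0.12). Both were lower in every hypoxic library, while HSPA5, HSP90B1 and CALR were higher in KYSE410. TRIB3, a pseudokinase induced by ATF4 and CHOP, changed by -2.39 ± 0.09 and -3.56 ± 0.05, and CHAC1, a glutathione-degrading target of the same factors, by -4.27 ± 0.12 and -3.94 ± 0.06. CEBPB, the dimer partner of CHOP, changed by -1.25 ± 0.10 and -2.50 ± 0.06. The adjusted p was at most 3.831e-04 for these 5 genes in either line. The list is named for the PERK branch, but these are mRNA levels. PERK activity was not measured, and its part in these changes was not tested. The 1 gene called higher was NCK1 in KYSE150 (0.44), an adaptor of PERK and of actin signalling, and PPP1R15A in KYSE410 (1.36), the phosphatase subunit GADD34, both named after their values were seen.

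Partners of ATF6 and IRE1 had 5 higher and 5 lower of 13 tested in KYSE150 (median -0.11). Of all genes there 23.5% were higher and 38.8% lower, so the share lower was near that of all genes. In KYSE410 4 were higher and 6 lower of 13 (median -0.04), near the 31.2% and 51.9% of all genes. Under median-of-ratios scaling these counts were 5 and 2 in KYSE150 (all genes 3917 and 3805 of 12691) and 7 and 5 in KYSE410 (all genes 5032 and 4969 of 12044). On a common sum they were 2 and 8 in KYSE410 (all genes 2737 and 7548 of 12089). TMBIM6, a membrane protein that restrains IRE1, had the same pattern of calls as HSPA5: it went from 307 ± 2.33 to 179.7 ± 2.54 FPKM in KYSE150 (-0.77 ± 0.07) and, in KYSE410, from 246 ± 4.76 to 328 ± 6.86 (0.42 ± 0.03; -0.23 under quantile normalization). TRAF2, the adaptor that IRE1 recruits, was higher in KYSE150 (0.73 ± 0.11) and lower in KYSE410 (-0.89 ± 0.12). RTCB, the ligase that joins the XBP1 exons, was lower in both (-0.29 ± 0.09 and -0.95 ± 0.03; the KYSE150 call was lost under median-of-ratios scaling, -0.13). ATF6B, a paralog of ATF6, was higher in KYSE150 (0.55 ± 0.07) and, by a small amount that turned to -0.04 on a common sum, in KYSE410 (0.18 ± 0.06). BAX and BAK1, death effectors that bind IRE1, went apart: BAX was higher (0.35 and 1.03) and BAK1 lower (-0.50 and -0.72) in both lines. In KYSE150 the BAX call was lost without normoxia replicate 3 or hypoxia replicate 1 or 2 (adjusted p from 0.0531 to 0.0705) and the RTCB call without any one hypoxia library (adjusted p from 0.0557 to 0.0974). In KYSE410 the ATF6B call was lost without hypoxia replicate 1 or normoxia replicate 2 or 3 (adjusted p from 0.0522 to 0.0664).

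Other ER foldases had 1 higher and 22 lower of 30 tested in KYSE150, and 10 higher and 10 lower of 28 in KYSE410. All genes had 23.5% and 38.8%, and 31.2% and 51.9%. The foldase medians were -0.45 and 0.03. Scaling moved both splits, and those of all genes. Under median-of-ratios scaling 13 were lower in KYSE150 (all genes 3805 of 12691). In KYSE410 the same scaling gave 18 higher and 8 lower (all genes 5032 and 4969 of 12044). On a common sum 6 were higher and 15 lower in KYSE410 (all genes 2737 and 7548 of 12089). PPIB, the abundant prolyl isomerase cyclophilin B, had 289.8, 391 and 290.0 FPKM in KYSE150 normoxia and 169.7, 168 and 168 in hypoxia, and 209, 208 and 205 in normoxia against 393, 406 and 397 in hypoxia in KYSE410. The shifts were opposite and without overlap (-0.92 ± 0.12 and 0.94 ± 0.03). SERPINH1, the collagen chaperone HSP47, was higher in KYSE410 (0.97 ± 0.04) and not called in KYSE150 (-0.03 ± 0.09, adjusted p = 0.817). TOR1A, a lumenal AAA+ ATPase, was lower in both (-0.94 and -1.39), and DNAJC16 was lower in KYSE410 (-0.89). CLGN, a calnexin homolog, fell in KYSE150 from 8.28 ± 0.245 to 0.850 ± 0.116 FPKM (-2.33). PPIC, another cyclophilin, changed by -1.33 in KYSE150 and by -0.20 in KYSE410, the latter turning to 0.01 under median-of-ratios scaling and lost without hypoxia replicate 1 or 3 or normoxia replicate 2 or 3 (adjusted p from 0.0566 to 0.0754).

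The other ERAD genes had 5 higher and 14 lower of 24 in KYSE150 and 11 higher and 11 lower of 25 in KYSE410. All genes had 23.5% and 38.8%, and 31.2% and 51.9%. The medians of the list were -0.28 and -0.004. Under median-of-ratios scaling KYSE410 had 15 higher and 8 lower (all genes 5032 and 4969 of 12044). On a common sum KYSE410 had 7 higher and 13 lower (all genes 2737 and 7548 of 12089). RNF5, a membrane ubiquitin ligase, had 23.7, 29.5 and 23.4 FPKM in KYSE150 normoxia and 76.7, 75.2 and 71.7 in hypoxia (1.51 ± 0.10), and 9.68, 9.33 and 9.67 in normoxia against 37.3, 33.6 and 36.2 in hypoxia in KYSE410 (1.79 ± 0.05). It was higher in all hypoxic libraries, whereas its relative RNF185 was lower in KYSE150 (-1.24 ± 0.10) and not called in KYSE410 (-0.03 ± 0.07; higher under median-of-ratios scaling, 0.20). NGLY1, which strips glycans from retrotranslocated chains, was higher in both (1.57 ± 0.07 and 0.42 ± 0.06). FAF2, which recruits the p97 ATPase, was lower in both (-1.20 ± 0.14 and -1.72 ± 0.04), as was the ubiquitin-conjugating enzyme UBE2J2 (-0.996 and -1.89 ± 0.04). RHBDD1, a rhomboid protease, fell in KYSE410 by a change of -1.83 ± 0.06 and was under the filter in KYSE150.

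Glycan processing genes had 6 higher and 10 lower of 24 in KYSE150 and 12 and 10 of 23 in KYSE410 (medians -0.20 and 0.15). The KYSE150 split was near that of all genes, 23.5% higher and 38.8% lower, and in KYSE410 all genes had 31.2% and 51.9%. On a common sum KYSE410 had 8 of these genes higher and 11 lower (all genes 2737 and 7548 of 12089). PRKCSH, the beta subunit of glucosidase II, was higher in both, from 66.4 ± 7.70 to 115 ± 3.77 FPKM in KYSE150 (0.78 ± 0.09) and, in KYSE410, from 66.9 ± 2.18 to 150.2 ± 4.46 (1.16 ± 0.04). GFPT1, the first enzyme of the hexosamine pathway that makes a sugar donor for glycans, was lower in both (-2.17 ± 0.11 and -1.04 ± 0.04, the latter -0.54 with length and GC trends removed), as was GNPNAT1 of the same pathway (-0.94 and -1.06). UAP1, the last enzyme there, had 147, 145 and 149.9 FPKM in KYSE410 normoxia and 37.5, 36.4 and 33.0 in hypoxia (-2.02 ± 0.05) but was slightly higher in KYSE150 (0.22 ± 0.06, adjusted p = 0.0149; not called without normoxia replicate 1 or hypoxia replicate 2 or 3, adjusted p from 0.0589 to 0.0705). DOLK, ALG2 and DPM1, which act in building the lipid-linked glycan, were lower in both lines (-1.79 and -1.36, -1.22 and -0.96, -1.07 and -0.34).

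Translocation and oligosaccharyltransferase genes had 1 higher and 22 lower of 33 in KYSE150 and 18 higher and 11 lower of 32 in KYSE410. Their medians were -0.45 and 0.26. All genes had 23.5% higher and 38.8% lower in KYSE150, and 31.2% and 51.9% in KYSE410. When rescaled to a common sum, KYSE410 had 15 and 15 (all genes 2737 and 7548 of 12089). Under median-of-ratios scaling it had 22 and 6 (all genes 5032 and 4969 of 12044). SSR3 and SSR4 of the translocon-associated complex and OST4 of the oligosaccharyltransferase were higher in KYSE410 (0.37, 1.08 and 0.90). In KYSE150 SSR3 was lower (-1.02), and SSR4 (-0.05, adjusted p = 0.75) and OST4 (0.10, adjusted p = 0.432) were not called, but both were higher without normoxia replicate 2 (0.10, adjusted p = 0.0287, and 0.20, adjusted p = 0.000858). SRP19 of the signal recognition particle had 32.3, 39.4 and 32.2 FPKM in KYSE150 normoxia and 8.76, 8.26 and 9.44 in hypoxia (-1.85 ± 0.10), and 28.2, 28.4 and 29.5 in normoxia against 7.87, 8.23 and 8.10 in hypoxia in KYSE410 (-1.71 ± 0.04). SRPRB, a subunit of its receptor, was also lower in both (-1.52 and -1.13), as was the signal peptidase subunit SPCS3 (-0.97 and -0.39; the KYSE410 call was lost under quantile normalization, -0.11).

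Transcript length moved with the KYSE410 changes: Spearman's rho of change against length was -0.27 over all tested genes and -0.33 over members (0.06 and 0.20 in KYSE150), a description across genes. The members' median length, 3681 bases, was close to that of tested genes, 3488. Removing trends of length and GC content left 27 members higher and 8 lower in KYSE410, and 9 and 20 in KYSE150. It moved all genes too: 4742 were then higher and 4566 lower of 11256 in KYSE410, and 4025 and 4180 of 11828 in KYSE150.

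Further called values moved by over 1.5 times with the setting while keeping their direction. With length and GC trends removed, the KYSE150 changes were -0.46 for XBP1 and 0.465 for EIF2AK3, and those in KYSE410 were 0.98 for CANX and 0.92 for DNAJC3. PDIA5 in KYSE150 had -0.25 under median-of-ratios scaling. On a common sum the KYSE410 rises were 0.37 for CANX, 0.38 for DNAJB9, 0.28 for DNAJC3, 0.395 for PDIA4 and 0.46 for SEC61A1. Under quantile normalization KYSE410 had 1.01 for SEC61G, 0.89 for DNAJB9 and 0.81 for DNAJC3. For the difference between the lines, a common sum gave 0.32 for DNAJB11, 0.29 for PDIA5, 0.37 for DERL1, 0.41 for DERL2, 0.32 for OS9 and 0.30 for SELENOS. Quantile normalization gave differences of 0.55 for HSP90B1, 0.73 for PDIA6 and 0.46 for SEC61G. Among the other pathway genes, KYSE410 changes became 0.315 for PPIB and -0.40 for BAK1 under quantile normalization, 0.14 for SSR3 and 0.195 for NGLY1 on a common sum, -0.094 for DPM1 under median-of-ratios scaling and -0.45 for DNAJC16 with length and GC trends removed. SPCS3 in KYSE410 lost its call with those trends removed (-0.01, adjusted p = 0.838).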

How the data were processed

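RNA of 12 libraries was sequenced, and the authors deposited 1 table of gene values per cell line, with 6 libraries in each. No header names the unit of the deposited values, which were read as FPKM because value times transcript length, summed per library, came to 0.899 to 1.003 of what that unit implies. Per the submitters' processing notes, reads passed through bcl2fastq 2.20, fastp 0.22.0 and HISAT2 2.2.1 on hg38. Which program and annotation gave the values, and whether strand was used, is not given in the sources used here. Low values did not move in whole-read steps (at most 2.47% of low genes shared 1 ratio between libraries), so no count test was run and the depth is unknown.

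Groups were taken from the sample labels, and columns were matched by name. Genes whose mean reached 1 FPKM were tested with limma 3.58.1 in R 4.3.3 (eBayes with a mean trend, no replicate block) on log2(FPKM + 1), within each line for oxygen and over all 12 libraries for the difference between lines. This pseudocount of 1 makes the changes of low genes smaller. P-values were adjusted by Benjamini-Hochberg over all tested genes, with 0.05 as the threshold. The procedure was tested on simulated data. Named genes were all members and, from each pathway list, the called genes with the 4 largest changes per line. Gene positions, overlaps and lengths came from GENCODE 29, and promoters from RefSeq on GRCh38.p14. The alternatives were 3 scalings, a pseudocount of 0.1, other filters, a stricter threshold, no trend, a replicate block, removal of length and GC trends, and leaving out each library. The members and lists were chosen with earlier results of these data known.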

Additional observations from a re-analysis of the deposited data

Results flagged for a closer look

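For 32 of 39 members, where 63.3% of all 12653 genes were called, the log2 response to hypoxia differed between the lines by a test of the difference itself (limma, adjusted p under 0.05), and each difference, KYSE410 minus KYSE150, follows its gene. Chaperones with a higher response in KYSE410 were CRELD2 (2.30), MANF (2.01), HSPA5 (1.34), CALR (1.22), HYOU1 (1.21), SDF2L1 (1.14), HSP90B1 (1.05), CANX (0.82), DNAJC3 (0.68), DNAJB11 (0.57) and DNAJB9 (0.34). The oxidoreductases with a higher response were TXNDC5 (2.19), P4HB (1.67), PDIA4 (1.28), PDIA3 (1.11), PDIA6 (1.11), PDIA5 (0.52) and ERO1A (0.40). All translocon subunits had a higher one: SEC61B (1.96), SEC61A1 (1.41) and SEC61G (0.93). ERAD genes divided into HERPUD1 (1.13), DERL2 (0.64), DERL1 (0.62), OS9 (0.57) and SELENOS (0.55) on the higher side and EDEM3 (-0.65) and DERL3 (-1.06) on the lower side, DERL3 being at or near 0 in KYSE410. The sensors and transcription factors were all on the lower side: EIF2AK3 (-0.36), ATF6 (-0.64), XBP1 (-0.95) and ERN1 (-1.12). Because normoxic and hypoxic KYSE410 libraries stand apart in sample-sheet number, oxygen and library set cannot be told apart in these differences.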

How the results depend on the processing

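Across the alternatives run, 22 of 38 members kept their direction and side of the threshold in KYSE150, 24 of 38 in KYSE410 and 27 of 39 for the difference between lines. The members lower in KYSE410 numbered 7 under median-of-ratios scaling and 8 with length and GC trends removed, against 13. All genes lower there numbered 4969, 4566 and 6254 in the same order. With a mean of at least 5 FPKM fewer genes were tested, and 3253 genes were lower in KYSE150, 4007 in KYSE410 and 2981 in the difference, of which 2 were members. Leaving out 1 library at a time gave 5 to 7 members higher and 17 to 25 lower in KYSE150, 19 to 20 and 10 to 12 in KYSE410, and 25 to 28 and 6 to 7 for the difference. Over all genes it gave 2454 to 3661 higher and 4169 to 5756 lower, 3538 to 3761 and 5995 to 6220, and 3153 to 3738 and 4187 to 4919. On a common sum 2737 genes were higher and 7548 lower in KYSE410, and 2356 and 6021 in the difference. DESeq2 was not run, since the values are not counts.

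Same-numbered libraries showed no shared deviation (r from -0.069 to 0.084 in KYSE150 and from -0.045 to 0.020 in KYSE410), and pairs of different number reached 0.11 in KYSE150. Deviations from means of 3 libraries cannot show whether same-numbered cultures were handled together, and the labels do not tell. With the replicate number as a block, 6 members were higher and 20 lower in KYSE150, 19 and 12 in KYSE410, and 27 and 6 for the difference. All genes then had 2922 higher and 4835 lower in KYSE150, 3730 and 6201 in KYSE410, and 3364 and 4484 for the difference.

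In KYSE150 the sign changed under median-of-ratios scaling for UGGT1 (0.11), PDIA6 (0.031), P4HB (0.028), SYVN1 (0.10), EDEM2 (0.025), SERPINH1 (0.13) and SSR4 (0.11). Under quantile normalization it changed for UGGT1 (0.069), SYVN1 (0.085), EDEM2 (0.013) and SERPINH1 (0.11). With length and GC trends removed it changed for UGGT1 (0.008), PDIA6 (0.092), EDEM2 (0.015) and SERPINH1 (0.009). With 1 library left out it changed for UGGT1 (-0.32 to 0.13), EDEM1 (-0.042 to 0.20), SERPINH1 (-0.084 to 0.061), SSR4 (-0.13 to 0.097) and SYVN1 (-0.099 to 0.000). In KYSE410 it changed under median-of-ratios scaling for EIF2AK3 (0.14), UGGT1 (0.10), SEL1L (0.088), SYVN1 (0.15), HERPUD1 (0.050), DERL1 (0.091), DERL2 (0.12), PPIC (0.014) and RNF185 (0.20). On a common sum it changed for HYOU1 (-0.18), PDIA5 (-0.10), EDEM1 (-0.18) and ATF6B (-0.037). Under quantile normalization it changed for EIF2AK3 (0.28), CANX (-0.068), HYOU1 (-0.010), UGGT1 (0.094), SEL1L (0.030), SYVN1 (0.24), DERL2 (0.21), PPIC (0.13), RNF185 (0.24) and TMBIM6 (-0.23). With length and GC trends removed it changed for EIF2AK3 (0.32), UGGT1 (0.38), SEL1L (0.34), SYVN1 (0.23), HERPUD1 (0.028), DERL1 (0.27), DERL2 (0.26) and RNF185 (0.23). With 1 library left out it changed for RNF185 (-0.091 to 0.032). For the difference between lines it changed under median-of-ratios scaling for UGGT1 (0.011), SYVN1 (0.071) and EDEM1 (0.051). On a common sum it changed for SIL1 (-0.048). Under quantile normalization it changed for UGGT1 (0.025), SYVN1 (0.15) and EDEM1 (0.062). With a pseudocount of 0.1 it changed for ERO1B (0.55). With length and GC trends removed it changed for UGGT1 (0.34), SYVN1 (0.25) and EDEM1 (0.23). With 1 library left out it changed for UGGT1 (-0.27 to 0.19), SYVN1 (-0.089 to 0.034) and EDEM1 (-0.15 to 0.092). The cause of these changes was not tested. The unknown depth leaves the counting error of low members such as DERL3, ERO1B and ERN1 unstated.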
